A study of Mus musculus with 6 samples.

Results

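The NF-E2, small Maf and Nrf factors were followed here as 10 genes: the cap'n'collar factors Nfe2, Nfe2l1, Nfe2l2 and Nfe2l3, the related repressors Bach1 and Bach2, the small Maf genes Mafg, Mafk and Maff, and Keap1. A gene was taken through the probe sets that the array annotation gives to its symbol alone, and where there was more than 1 such probe set, the one of highest mean over all 6 arrays was used. All 10 genes were measured, out of 22180 genes and 41345 probe sets in all. The choice of probe set used no expression difference between the groups. The members, however, were chosen with earlier results of these data known. The arrays held RNA of megakaryocyte-erythroid progenitors (MEP), the common precursors of the megakaryocyte and red cell lineages, sorted by flow cytometry from fresh marrow. There were 3 arrays of T-bet knockout mice and 3 of wild-type mice, all of the C57BL/6 strain and labelled as biological replicates. Whether a replicate was 1 mouse or a pool, and the age, sex and knockout allele, were not given in the sources used here. T-bet, the product of Tbx21, is best known as the factor that directs T helper 1 and natural killer cells.

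Cap'n'collar and Bach proteins carry a basic leucine zipper and bind DNA as dimers with a small Maf protein, which has a zipper but no activating domain. NF-E2, the dimer of the Nfe2 product with a small Maf, is required for platelet release by megakaryocytes and was first described as a factor binding globin control regions in red cell precursors. Nrf2, the Nfe2l2 product, drives antioxidant genes, is held back by Keap1, which marks it for degradation, and competes for the same sites with the heme-sensing repressor Bach1. Much of this control acts on protein, which arrays do not measure.

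All values are log2 signals as deposited, in which 1 unit is a doubling, and ± gives the SD among the 3 arrays. A difference is knockout minus wild type. It was tested with limma, a linear model fitted to all probe sets together, with p adjusted over all of them by the Benjamini-Hochberg method and a threshold of 0.05. In bulk RNA of sorted cells, fewer cells of a type and less RNA per cell cannot be told apart.

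Several facts of the whole series bear on what follows. Tbx21 itself averaged 6.49 ± 0.10 for knockout and 6.58 ± 0.04 for wild type, with overlapping groups, so the labelled genotype could not be checked from it. The sources used here do not say where its probes lie relative to the deleted part. Knockout replicates 1 and 2 and wild-type replicate 1 carried signal of both Xist, an RNA of female cells, and Y-linked genes. Both replicates numbered 3 had Y-linked signal without Xist, and wild-type replicate 2 had Xist without Y-linked signal. What made the 3 mixed arrays carry both was not tested, and each family gene's difference below is also given within these classes. The p-values rest on the spread between these 6 arrays. In limma the spread of each probe set is drawn towards that of all probe sets. Its SEs, intervals and p-values therefore do not reflect the scatter of 1 gene alone. Of the markers of the labelled cells, 0 of 8 measured erythroid and 0 of 6 measured megakaryocyte genes lay among the dim 30% of probe sets, those of lowest mean signal. In the other marker lists, 5 of 8 mast cell and basophil genes, 5 of 12 granulocyte and monocyte genes, 4 of 9 T and NK cell genes, 2 of 8 macrophage genes, 2 of 10 B cell genes and 1 of 9 stem and multipotent progenitor genes were dim.

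None of the 10 family genes passed the threshold (0 of 10; limma adjusted p = 1 for each), where 0% of all probe sets did (0 of 41345). At an unadjusted p under 0.05 there were also 0 of the 10, against 4.92% of all probe sets and 3.13% of all genes taken with 1 probe set each. Differences lay between -0.10, for Nfe2l1, and 0.17, for Nfe2l3, with 6 above 0 and 4 below and a median of 0.02, where the median of all genes was -0.0045. The 2 groups of arrays did not overlap for 1 of the 10, Nfe2l1, with knockout lower. Among all genes 8.7% did not overlap, 5.18% with knockout lower and 3.52% with knockout higher, so 1 of 10 is close to the background.

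The arrays bounded the size of these differences. For all 10 genes the whole 95% interval was inside 1.5-fold up or down, which held for 85.9% of all genes and for 93.1% of genes outside the dim 30%. None of the 10 was dim. These bounds apply to array signal, whose range can be compressed relative to RNA amounts.

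**Figure D1:**
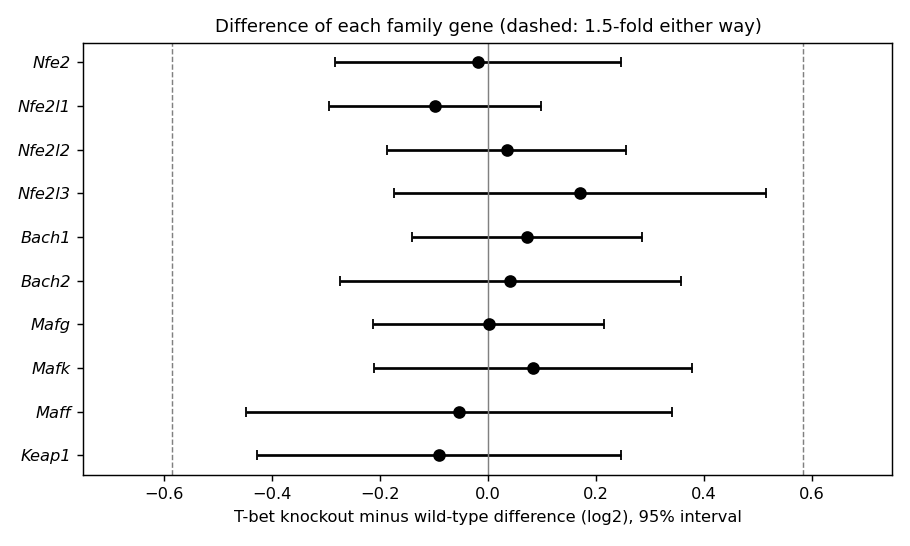
Knockout minus wild-type difference in log2 signal for the 10 family genes, with limma's 95% intervals from 3 arrays per group; dashed lines mark 1.5-fold either way. Every interval covers 0 and lies between the dashed lines, and Nfe2l3, at 0.17, and Nfe2l1, at -0.10, are the outermost points.

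Nfe2, the large subunit of NF-E2, read 7.66, 7.64 and 7.70 in knockout replicates 1 to 3, against 7.66, 7.86 and 7.53 in wild-type replicates 1 to 3. The knockout values lay inside the wild-type range, whose ends were wild-type replicates 2 and 3. Group means were 7.67 ± 0.03 for knockout and 7.69 ± 0.17 for wild type, which gave -0.02 (SE 0.11, 95% interval -0.28 to 0.25, exact permutation p = 0.8). Between the mixed arrays the difference was -0.02, and between the arrays with Y-linked signal alone it was 0.17. It turned to 0.07 without wild-type replicate 2.

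The genes whose array pattern was closest to that of Nfe2 were found by centring each gene on its own mean and taking the root-mean-square distance over the 6 arrays, among 14640 genes outside the dim 30%, with predicted genes and Riken clones skipped. The closest was Itga5, the fibronectin receptor integrin chain, at a distance of 0.01 log2 units, followed by Shfl, an interferon-induced inhibitor of ribosomal frameshifting, and Tmed5, a gene of vesicle transport, each at 0.03. Itga5 lies on chromosome 15 with Nfe2, with 3 protein-coding genes between them in the RefSeq GRCm38.p6 annotation, while Shfl lies on chromosome 9 and Tmed5 on chromosome 5. Itga5 read 9.87, 9.84 and 9.92 in the knockout arrays, against 9.87, 10.06 and 9.77 in the wild-type arrays. All 3 genes shared with Nfe2 a high value in wild-type replicate 2 and a low value in wild-type replicate 3. This is a description of 6 arrays, chosen as the best of many genes.

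**Figure D2:**
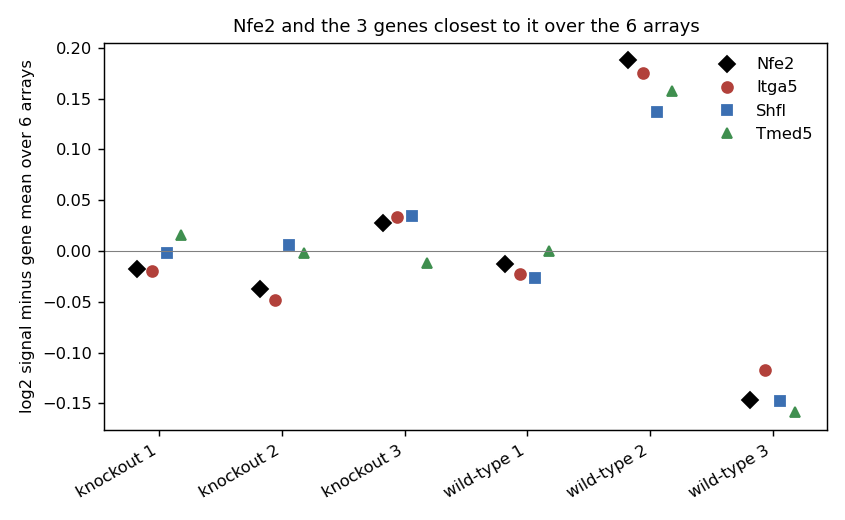
Log2 signal of Nfe2 and of the 3 genes closest to it, each minus its own mean over the 6 arrays, by array. The 4 genes stay within 0.05 of their mean in the knockout arrays and in wild-type replicate 1, and all are highest in wild-type replicate 2 and lowest in wild-type replicate 3.

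Nfe2l1 encodes Nrf1, a membrane-anchored factor that is processed and released to switch on proteasome genes when proteasomes are impaired. It read 8.78, 8.83 and 8.86 in the knockout arrays, against 8.92, 8.91 and 8.93 in the wild-type arrays. All knockout values lay below all wild-type values, and the 3 wild-type arrays were nearly alike. On average the signal was 8.82 ± 0.04 for knockout and 8.92 ± 0.01 for wild type, which gave -0.10 (SE 0.08, 95% interval -0.29 to 0.10, limma adjusted p = 1). This SE exceeds both SDs, since limma draws the spread of a gene towards that of all probe sets. The exact permutation test gave p = 0.1, the smallest that 3 arrays against 3 allow. The difference was -0.11 between the mixed arrays, -0.07 between arrays with Y-linked signal alone and -0.06 without the mixed arrays, which leaves 1 knockout array against 2 wild-type arrays. In signal it amounts to 0.935-fold, with an interval of 0.815-fold to 1.07-fold.

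Nfe2l1 lies near the targeted gene: in the RefSeq GRCm38.p6 annotation, both are on chromosome 11 with 10 protein-coding genes between them. Of the 5 measured genes on either side of Nfe2l1, with predicted genes and clones skipped, 9 of 10 had a difference below 0, as did 51.8% of all genes, and their median was -0.04. None of the 10 passed the threshold (0 of 10 by limma). At an unadjusted p under 0.05 there were also 0 of 10, against 3.13% of all genes. The groups did not overlap, with knockout lower, for 2 of them, against 5.18% of all genes. Copz2, a coatomer subunit gene, read 6.23, 6.06 and 6.04 in the knockout arrays, against 6.30, 6.24 and 6.54 in the wild-type arrays, which differ by -0.25 (SE 0.12), or by -0.16 without wild-type replicate 3. Prr15l, a proline-rich protein gene, read 7.42, 7.32 and 7.17 in the knockout arrays, against 7.53, 7.50 and 7.53 in the wild-type arrays, which differ by -0.22 (SE 0.10). Both lie on the side of Nfe2l1 that faces Tbx21, as do Cdk5rap3 at -0.07, Sp6 at -0.11 and the microRNA gene Mir152 at -0.0053. On the far side Cbx1, Snx11, Skap1, Hoxb1 and Hoxb2 differed by -0.04, -0.04, -0.03, -0.02 and 0.07. Whether position near Tbx21 has a part in the Nfe2l1 values was not tested.

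**Figure D3:**
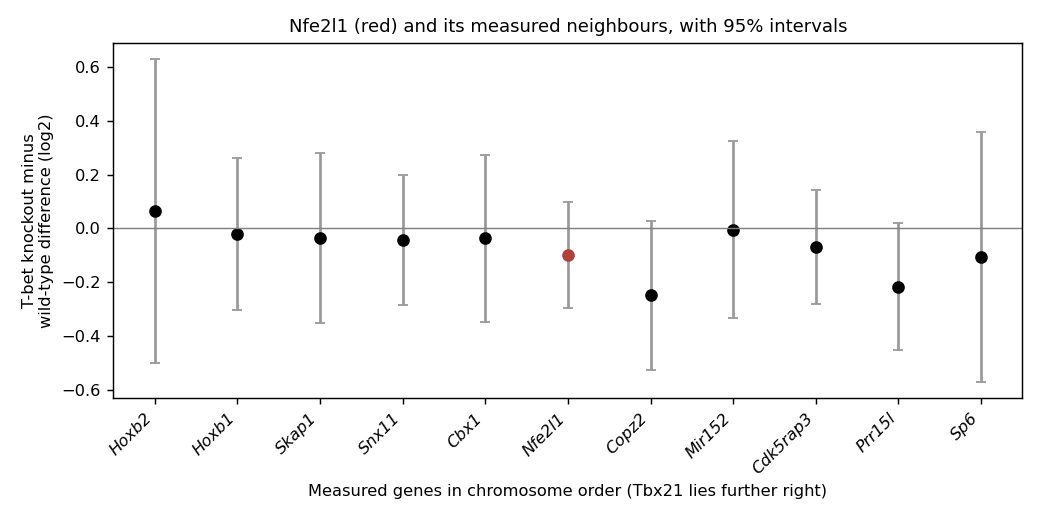
Knockout minus wild-type difference in log2 signal, with limma's 95% intervals (3 arrays per group), for Nfe2l1 (red) and the 5 measured genes on either side in chromosome order. Every interval covers 0; Copz2, at -0.25, and Prr15l, at -0.22, are the lowest points and lie towards Tbx21.

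Nfe2l2, the gene of Nrf2, read 11.52, 11.71 and 11.65 in the knockout arrays, against 11.54, 11.59 and 11.63 in the wild-type arrays. The wild-type values lay inside the knockout range. The group averages were 11.62 ± 0.10 for knockout and 11.59 ± 0.04 for wild type, which gave 0.03 (SE 0.09, 95% interval -0.19 to 0.26). It was 0.07 between the mixed arrays and 0.02 between arrays with Y-linked signal alone. Replicate 1 was the lowest array of both groups.

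Nfe2l3, the gene of Nrf3, a less studied relative of Nrf1, had the widest gap between group means in the family. It read 6.82, 6.58 and 6.66 in the knockout arrays, against 6.76, 6.51 and 6.28 in the wild-type arrays, so that the groups overlapped and wild-type replicate 3 was the lowest of the 6. Mean signals were 6.69 ± 0.12 for knockout and 6.52 ± 0.24 for wild type, which gave 0.17 (SE 0.14, 95% interval -0.17 to 0.52, exact permutation p = 0.4). Without wild-type replicate 3 the difference was 0.05. It was -0.06 between the mixed arrays and 0.38 between arrays with Y-linked signal alone, each with a single wild-type array.

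**Figure D4:**
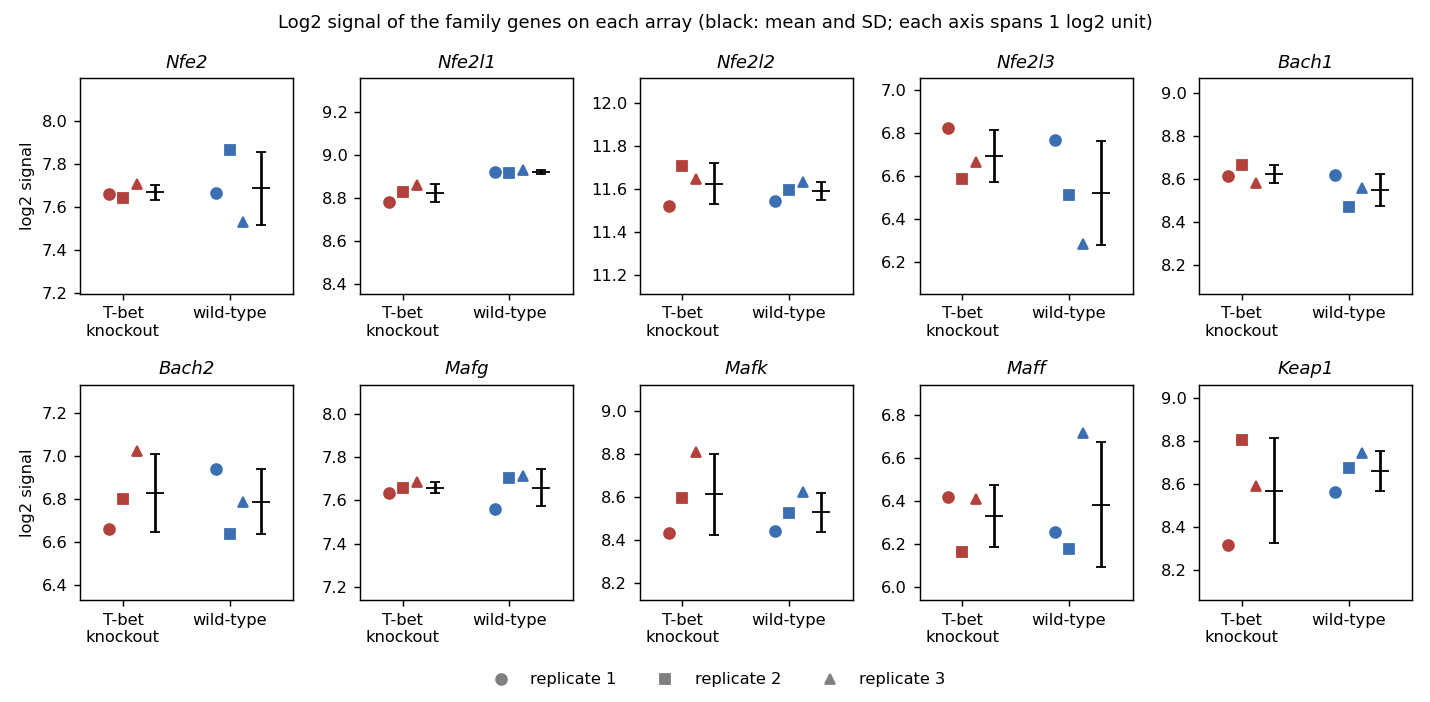
Log2 signal of each family gene on each array, knockout left and wild-type right, with symbols for the replicate number and black bars for mean and SD; every panel spans 1 log2 unit at its own level. Knockout and wild-type values intermingle in every panel except that of Nfe2l1, where the 3 knockout points lie below the 3 wild-type points.

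Among the repressors, Bach1, which heme binding releases from DNA, read 8.62, 8.67 and 8.58 in the knockout arrays, against 8.62, 8.47 and 8.56 in the wild-type arrays. The groups overlapped, with wild-type replicate 2 lowest. Averages were 8.62 ± 0.04 for knockout and 8.55 ± 0.08 for wild type, which gave 0.07 (SE 0.09, 95% interval -0.14 to 0.29). The difference was 0.02 within each of the 2 classes of sex-linked signal that hold both genotypes.

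Bach2, a relative of Bach1 known for its role in B and T lymphocytes, read 6.66, 6.80 and 7.02 in the knockout arrays, against 6.94, 6.63 and 6.79 in the wild-type arrays. The ranges overlapped in part, with knockout replicate 3 highest and wild-type replicate 2 lowest, at a difference of 0.04 (SE 0.13, 95% interval -0.27 to 0.36). It was -0.21 between the mixed arrays and 0.24 between arrays with Y-linked signal alone. Another probe set, which the annotation lists for both Bach2 and its antisense gene Bach2os, stood outside the rule. It read 6.01, 6.15 and 6.12 in the knockout arrays, against 5.90, 5.93 and 5.97 in the wild-type arrays, so its groups did not overlap, at 0.16 (SE 0.09, limma adjusted p = 1). The gene behind that signal cannot be told apart. Mean log2 signal of 10 measured B cell markers ran from 6.66 to 7.24 in knockout arrays and from 6.41 to 6.85 in wild-type arrays. Like Bach2, this mean was highest in knockout replicate 3 and lowest in wild-type replicate 2, extremes also found in genes that are not B cell markers. Knockout replicate 1, by contrast, was next to the highest for the marker mean and next to the lowest for Bach2. The median difference of these markers was 0.25, and 8 of 10 were above 0, against 48.2% of all genes. Of the 10 markers 0 passed limma's adjusted threshold or an unadjusted p of 0.05, where 3.13% of all genes had an unadjusted p under 0.05. Ms4a1 and Vpreb1 were dim, and Ighm, the IgM heavy chain, had the widest difference, 0.64 (SE 0.42). Their part in the Bach2 values was not tested.

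The small Maf genes supply the partner that all these factors need. Mafg read 7.63, 7.66 and 7.69 in the knockout arrays, against 7.56, 7.70 and 7.71 in the wild-type arrays, with a difference of 0.0016 (SE 0.09, 95% interval -0.21 to 0.22). Mafk read 8.43, 8.60 and 8.81 in the knockout arrays, against 8.44, 8.52 and 8.62 in the wild-type arrays. Its groups overlapped, with both extremes in the knockout, and the difference was 0.08 (SE 0.12, 95% interval -0.21 to 0.38).

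Maff, the small Maf best known for induction by stress and cytokines, read 6.42, 6.16 and 6.41 in the knockout arrays, against 6.26, 6.18 and 6.72 in the wild-type arrays. Wild-type replicate 3 stood above the other 5 arrays, and without it the difference of -0.05 (SE 0.17, 95% interval -0.45 to 0.34) became 0.11. Between the mixed arrays the differences of Mafg, Mafk and Maff were 0.09, 0.07 and 0.03, and between arrays with Y-linked signal alone -0.03, 0.19 and -0.31. Mafg also lies on chromosome 11, but with 496 protein-coding genes between it and Tbx21. Of its 10 measured neighbours 5 had differences above 0 and 5 below. Their groups overlapped in every case, which is close to the background, as 8.7% of all genes did not overlap.

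The dimers of this family read sequences built on the antioxidant response element core TGACNNNGC, where N is any base, and on TGAGTCA, which is also the AP-1 core and is contained in the longer NF-E2 site. A match to TGACNNNGC can overlap one to TGAGTCA. Both strands were searched from 250 bases before to 50 after each annotated start, in RefSeq promoters of GRCm38.p6, which held 9 of the 10 family genes. The core TGACNNNGC occurred in 4 of the 9 (44.4%), against 3781 of the 27025 genes searched (14.0%). The 4 were Nfe2l2 and all 3 small Maf genes. TGAGTCA occurred in 0 of the 9, against 5.95% of genes, and the NF-E2 site in 0 of the 9, against 0.167%. A match describes the letters and shows no binding. The 4 stretches are shown because they place the letters that the family reads in front of Nfe2l2 and of the genes of the shared small Maf partners; they are written along the gene's strand and capitals mark the core, which in Mafg and Mafk lies on the opposite strand.
Nfe2l2, chr2:75704880-75704913, minus strand, core from 240 bases before the start: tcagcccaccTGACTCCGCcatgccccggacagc
Maff, chr15:79346494-79346532, plus strand, core from 112 bases before the start: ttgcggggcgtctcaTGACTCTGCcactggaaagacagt
Mafg, chr11:120633746-120633784, minus strand, core from 222 bases before the start: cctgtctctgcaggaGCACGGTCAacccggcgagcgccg
Mafk, chr5:139791508-139791535, plus strand, core from 13 bases before the start: cgcgcgatcccggaaGCGGTGTCAgtac

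Keap1, the adaptor that brings Nrf2 to its ubiquitin ligase, read 8.32, 8.80 and 8.59 in the knockout arrays, against 8.56, 8.68 and 8.75 in the wild-type arrays. Its lowest and highest values of the 6 were those of knockout replicates 1 and 2, and the difference was -0.09 (SE 0.14, 95% interval -0.43 to 0.25). Without knockout replicate 1 it was 0.04. A second Keap1 probe set averaged 7.14 ± 0.11 for knockout and 7.21 ± 0.07 for wild type, which gave -0.07 (SE 0.10). Knockout replicate 1 was not the lowest array on that probe set. Between the mixed arrays the difference of the first probe set was -0.0030, and between arrays with Y-linked signal alone it was -0.16.

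Across the family, knockout replicate 1 was the lowest of the 6 arrays for 4 genes (Nfe2l1, Nfe2l2, Mafk and Keap1) and the highest for 1, while knockout replicate 2 and wild-type replicate 3 were each the highest for 3. Same-numbered arrays differed in 1 direction in all 3 pairs for Nfe2l1, at -0.14, -0.09 and -0.07 for numbers 1 to 3, and for Nfe2l3, at 0.06, 0.07 and 0.38. For the other 8 genes the pairs differed in direction.

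Genes downstream of the family were followed as lists. Among 14 measured of 16 genes known as NF-E2 targets or NF-E2-dependent genes of megakaryocytes, 10 had a difference below 0 and 4 above, with a median of -0.06 against -0.0045 over all genes. Without wild-type replicate 3 this median was 0.0061. None passed limma's adjusted threshold, and 1 of the 14 had an unadjusted p under 0.05, against 3.13% of all genes. This was Itga2b, the integrin chain CD41, at 7.25, 7.15 and 7.34 in the knockout arrays, against 7.50, 7.41 and 7.86 in the wild-type arrays, which differ by -0.34 (SE 0.14, limma adjusted p = 1). Itga2b was the only gene of the 14 whose groups did not overlap, against 8.7% of all genes. Its difference was -0.21 without wild-type replicate 3. Pf4, a platelet chemokine gene, differed by -0.48 (SE 0.21) with overlapping groups, and the steroid dehydrogenase gene Hsd3b1 by 0.40 (SE 0.20) at dim signal. Tubb1, the platelet beta tubulin whose loss mirrors part of NF-E2 deficiency, averaged 6.35 ± 0.27 in knockout and 6.12 ± 0.20 in wild-type arrays. The thromboxane synthase gene Tbxas1 and the granule trafficking gene Rab27b differed by -0.25 (SE 0.17) and -0.13 (SE 0.14). The mean log2 signal of 6 measured megakaryocyte markers, which share Itga2b, Pf4, Gp9 and Ppbp with this list, ran from 6.99 to 7.36 in knockout arrays and from 7.23 to 7.55 in wild-type arrays. The mean of 9 measured stem and multipotent progenitor markers ran from 7.29 to 7.47 in knockout arrays and from 7.41 to 7.55 in wild-type arrays. Of these 9 genes 8 were below 0, against 51.8% of all genes, with a median difference of -0.12. The 8 include Kit, at -4e-04. The part of either marker list in the NF-E2 target values was not tested. Megakaryocyte genes of these arrays were already known to lie mostly below 0, so this list is no independent evidence of a direction.

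Of 27 measured Nrf2 targets among 32 listed, 16 were above 0 and 11 below, with a median of 0.03 and a range of -0.22 to 0.15. None passed limma's adjusted threshold or an unadjusted p of 0.05, where 3.13% of all genes had an unadjusted p under 0.05. Srxn1, sulfiredoxin, which repairs oxidised peroxiredoxins, had the smallest unadjusted p of the list. It read 7.56, 7.35 and 7.54 in the knockout arrays, against 7.79, 7.66 and 7.66 in the wild-type arrays, which differ by -0.22 (SE 0.10, limma adjusted p = 1). The knockout values all lay below the wild-type values. Malic enzyme Me1, at dim signal, and thioredoxin Txn1 differed by -0.19 (SE 0.11) and -0.15 (SE 0.10). The quinone reductase gene Nqo1, a standard readout of Nrf2, averaged 8.78 ± 0.28 in knockout and 8.82 ± 0.08 in wild-type arrays. Gclm, the regulatory subunit of glutathione synthesis, averaged 11.74 ± 0.08 in knockout and 11.70 ± 0.09 in wild-type arrays. Gstp1, a glutathione transferase gene, was the other gene of the list whose groups did not overlap, at 0.08 (SE 0.09) with knockout higher. The groups did not overlap for 2 of the 27, against 8.7% of all genes.

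TGAGTCA occurred in 6 of 27 Nrf2 targets with a promoter in the RefSeq table (22.2%), against 5.95% of all genes searched, and TGACNNNGC in 10 of 27 (37.0%), against 14.0%. These 27 are not the same set as the 27 measured genes. Prdx1 and G6pdx, which held such sites, were searched here but not measured. Srxn1 held TGAGTCA in 2 places; both are shown, with the 7 letters in capitals, because it had the smallest unadjusted p among the Nrf2 targets.
Srxn1, chr2:152105407-152105443, plus strand, site from 102 bases before the start: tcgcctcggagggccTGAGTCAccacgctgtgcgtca
Srxn1, chr2:152105464-152105500, plus strand, site from 45 bases before the start: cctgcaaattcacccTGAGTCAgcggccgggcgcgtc

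Of 12 measured Bach1 and heme response genes among 18 listed, 10 were above 0 and 2 below, with a median of 0.04. None passed limma's adjusted threshold or an unadjusted p of 0.05. Of all genes 48.2% were above 0 and 3.13% had an unadjusted p under 0.05. The 10 include the family gene Mafg, at 0.0016. The listed genes that were not measured were Ftl1, Hbb-bt, Hbb-bs, Hba-a1, Hba-a2 and Alas2. Without wild-type replicate 1 the median was -0.013. Erythroid markers were also mostly above 0, at 7 of 8 with a median of 0.06, and their mean log2 signal ran from 11.31 to 11.50 in knockout arrays and from 11.29 to 11.40 in wild-type arrays. Their part in the values of this list was not tested. This list shares Hmox1, Nqo1, Gclm, Sqstm1 and Slc7a11 with the Nrf2 targets. Hmox1, the heme oxygenase that Bach1 represses, read 5.84, 6.05 and 5.87 in the knockout arrays, against 5.54, 5.94 and 6.12 in the wild-type arrays. The wild-type arrays thus held both its lowest and its highest value, and the difference was 0.06 (SE 0.16). Ferrochelatase Fech and biliverdin reductase Blvrb differed by 0.17 (SE 0.13) and 0.08 (SE 0.11). Slc48a1, a heme transporter, differed by -0.07 (SE 0.08). It was the only gene of the 12 whose groups did not overlap, against 8.7% of all genes.

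The 34 measured proteasome genes and assembly or extraction factors of 35 listed as Nrf1 targets spread narrowly, from -0.11 to 0.15. Of these 24 were below 0 and 10 above, where 51.8% of all genes were below 0. Their median was -0.03, against -0.0045 over all genes, and it was 0.0175 without knockout replicate 1. None passed limma's adjusted threshold or an unadjusted p of 0.05 (0 of 34), where 3.13% of all genes had an unadjusted p under 0.05. Psma3, a core particle subunit, read 11.34, 11.35 and 11.34 in the knockout arrays, against 11.38, 11.52 and 11.43 in the wild-type arrays, which differ by -0.10 (SE 0.09), and was the only gene of the 34 whose groups did not overlap, against 8.7% of all genes. Ufd1, a cofactor of the segregase Vcp, and the core subunit Psmb1 differed by 0.15 (SE 0.10) and -0.11 (SE 0.09).

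The machinery that degrades or processes these factors had 17 measured genes of 19, 8 above 0 and 9 below, with a median of -0.0038. None passed limma's adjusted threshold or an unadjusted p of 0.05, where 3.13% of all genes had an unadjusted p under 0.05. Cul3, the scaffold of the Keap1 ligase, averaged 11.19 ± 0.09 in knockout and 11.22 ± 0.04 in wild-type arrays. Gsk3b, a kinase that marks Nrf2 for Keap1-independent degradation, read 10.48, 10.47 and 10.59 in the knockout arrays, against 10.63, 10.60 and 10.66 in the wild-type arrays. Its groups did not overlap, at a difference of -0.12 (SE 0.09). Btrc, the ligase adaptor that reads that mark, and Syvn1, a ligase of the endoplasmic reticulum that acts on Nrf1 and Nrf2, each differed by 0.11 (SE 0.10 and 0.09). The groups of Syvn1 did not overlap either, with knockout higher. Of the 17 genes, 1 was thus separate with knockout lower and 1 with knockout higher, against 5.18% and 3.52% of all genes.

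The list of large Maf and other zipper genes holds genes that can share sites or partners with the family. It also holds Crebbp, the gene of a coactivator without a zipper. Of the 18 listed genes 16 were measured, 8 above 0 and 8 below, with a median of 0.0051. None passed limma's adjusted threshold, and 1 of 16 had an unadjusted p under 0.05, against 3.13% of all genes. Mafa, a large Maf known from pancreatic beta cells, read 7.38, 7.30 and 7.24 in the knockout arrays, against 7.82, 7.65 and 8.03 in the wild-type arrays. Of the 16 genes, only Mafa had groups that did not overlap, against 8.7% of all genes. Its difference was -0.53 (SE 0.12, limma adjusted p = 1), wider than that of any family gene. Batf2 and Creb1, also zipper factor genes, differed by -0.29 (SE 0.19) and 0.14 (SE 0.10), and the large Maf gene Maf averaged 6.14 ± 0.10 in knockout and 6.08 ± 0.08 in wild-type arrays.

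**Figure D5:**
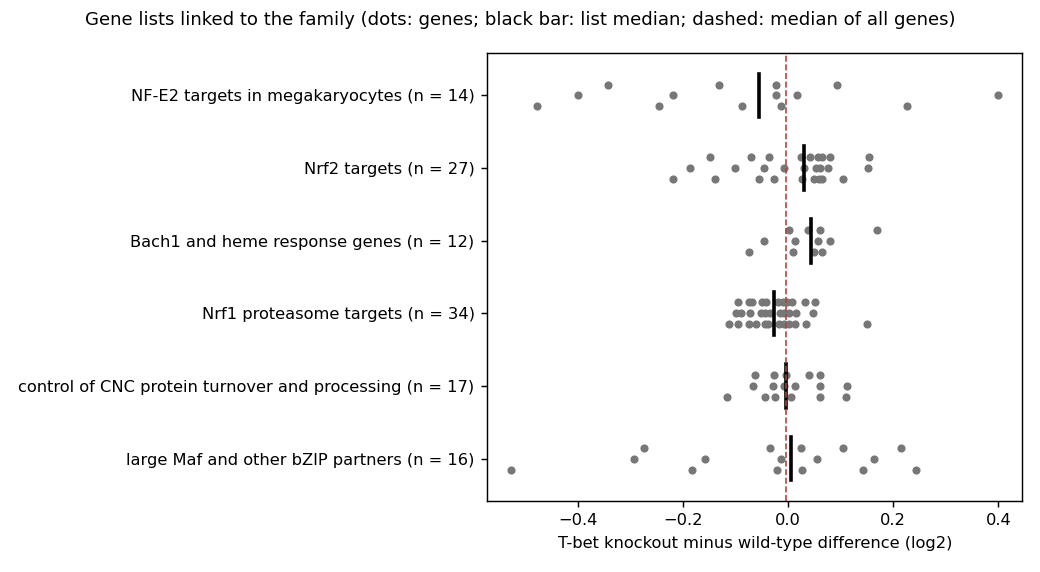
Knockout minus wild-type difference in log2 signal of every measured gene in the 6 lists (dots), with the list median (black bar) and the median of all genes (dashed line, -0.0045). The list medians lie between -0.06 and 0.04, and Mafa, at -0.53, is the leftmost dot in the list of large Maf and other zipper genes, which includes Crebbp.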

How the data were processed

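The authors deposited 1 log2 signal per probe set and array. The submitters' processing notes name Expression Console, version 1.4.1.46; its background correction, normalization and summarisation settings were not given in the sources used here, whereas the log2 base was inferred from the values, whose maximum of 14.2 exceeds 11.1, the natural log of a 16-bit scanner's largest intensity. Array medians lay between 6.44 and 6.53, so values were used as deposited. Detection calls were not used here, and the number of arrays limits precision. Probe sets were named through the platform annotation (23521 with 1 symbol, 1814 with several, 16010 unlisted). Of those with 1 symbol, 23328 had a gene ID found in RefSeq and took the symbol given there, changed or not.

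Differences were fitted with limma 3.58.1 (lmFit, eBayes) in R 4.3.3 over 41345 probe sets and checked on simulated data. Exact permutation tests were 2-sided. Groups came from the sample titles. The members and lists were chosen with earlier results of these data known. Genes were named by rule: the 10 members, Tbx21, the 3 smallest p per list, the 3 genes closest to Nfe2 and 5 neighbours on either side of Nfe2l1 and Mafg. Other genes (Tubb1, Tbxas1, Rab27b, Nqo1, Gclm, Gstp1, Hmox1, Cul3, Maf, Crebbp, Ighm, Ms4a1, Vpreb1 and Kit) were named after their values were seen. Promoters were searched outside chromosome 18.

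Same-numbered arrays had correlated deviations from their group means (r = 0.285, 0.116 and 0.115 over genes for numbers 1, 2 and 3, and 0.212, 0.0569 and 0.140 over all probe sets). The labels do not say what a number shares, so pairs entered only the replicate block.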

Additional observations from a re-analysis of the deposited data

How the results depend on the processing

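The alternatives were a further quantile normalization, arrays centred on their median, limma-trend, array weights, no dim probe sets, probe sets with 1 symbol only, the replicate block, a block for sex-linked signal class, leaving out the 3 mixed arrays (1 knockout against 2 wild-type arrays, with the lone array assumed to vary like the others), leaving out each array in turn and, for Keap1, the mean of its probe sets. In all of them 0 of the 10 family genes were called (151 values, smallest limma adjusted p = 0.652, for Bach2 without the mixed arrays, and 0.768 in the other fits). Nfe2l1, Nfe2l3 and Bach1 kept their direction throughout, and Nfe2l1 lay between -0.12 and -0.06. Since its groups did not overlap, leaving out arrays could not turn the direction of Nfe2l1. For every gene, limma-trend, the use of fewer probe sets and the replicate block leave the difference itself as it was. With the replicate block Nfe2l1 remained at -0.10 (limma adjusted p = 0.881), and the block called 0 probe sets and changed no call. Probe sets past the threshold numbered 1 with centred arrays, 1 with array weights and 0 to 2 with 1 array left out (2 without knockout replicate 3).

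Directions near 0 turned. Mafg was -0.0313 after quantile normalization, -0.0072 with array weights and -0.0215 without the mixed arrays. Keap1 was 0.0023 with array weights. Nfe2 was 0.0661 with the sex-linked block and 0.0071 without the mixed arrays, and Bach2 was -0.0168 with that block. With 1 array left out, Nfe2 lay between -0.0968 and 0.0704, Nfe2l2 between -0.0070 and 0.0867, Bach2 between -0.0552 and 0.13, Mafg between -0.048 and 0.0288, Mafk between -0.015 and 0.17, Maff between -0.16 and 0.11 and Keap1 between -0.21 and 0.0359. The cause of these turns was not tested. Without the mixed arrays Bach2, Mafk and Nfe2l3 were at 0.31, 0.24 and 0.27. The list medians lay between -0.12 and 0.0061 for NF-E2 targets, -0.0021 and 0.05 for Nrf2 targets, -0.01 and 0.10 for Bach1 and heme genes, -0.07 and 0.02 for proteasome genes, -0.04 and 0.06 for turnover genes and -0.07 and 0.08 for large Maf and other zipper genes. The 21 other genes examined (Tbx21, Copz2, Prr15l and those of smallest p in each list) kept their direction in all 313 values, with 0 called. A kept direction was favoured in advance. The list genes were picked by p in these same arrays, the groups of Copz2 and Prr15l did not overlap, and several settings cannot change a difference. Sizes did change. Without wild-type replicate 3 Itga2b, Copz2 and Batf2 were at -0.21, -0.16 and -0.15, without wild-type replicate 2 Ufd1 and Txn1 at 0.08 and -0.08, and without knockout replicate 3 Fech, Btrc and Batf2 at 0.09, 0.04 and -0.15. Without the mixed arrays Pf4 and Srxn1 were at -0.13 and -0.12.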
